A study of Homo sapiens with 6 samples.

Results

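The feedback targets of Wnt signaling and the TCF/LEF transcription factors were followed in HCT116 cells with and without knockdown of GDPD5. The 10 genes were AXIN2, DKK1, NKD1, RNF43, ZNRF3, LGR5, ASCL2, LEF1, TCF7 and TCF7L2, chosen by symbol with earlier results of these data known. Each matched 1 Ensembl gene among the 79302 rows of the count table. HCT116 is a human colorectal cancer line that carries a mutant beta-catenin. The 3 control libraries carried a control shRNA (shCtrl) and the other 3 an shRNA against GDPD5 (shGDPD5). The study's text describes all of these cells as radioresistant HCT116, taken 6 h after irradiation with 4 Gy, whereas the sample labels give only the line and the shRNA. Neither the labels nor the study's text tell which GDPD5 shRNA these libraries carry or whether replicate libraries are separate cultures. The p-values therefore measure only the spread between these libraries, which may be technical.

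In canonical Wnt signaling a destruction complex of AXIN, APC, GSK3 and casein kinase marks beta-catenin for degradation, and Wnt ligands bound to Frizzled and LRP receptors stop it. Beta-catenin then enters the nucleus and acts through TCF/LEF factors, which bind a shared DNA motif and otherwise recruit Groucho/TLE corepressors. Many of the genes switched on in this way are brakes on the pathway itself, and in the colon the pathway maintains crypt stem cells and is active in most colorectal cancers.

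Total counts per library ran from 17602377 to 18076812 for shCtrl and from 16715522 to 18510728 for shGDPD5. GDPD5 itself had 8.33, 11.6 and 9.75 CPM (normalized counts scaled to 1e6 per library) in shCtrl and 5.44, 5.55 and 5.19 in shGDPD5, which is -0.88 on the log2 scale (SE, the standard error, 0.13, edgeR adjusted p = 0.000116). Of 10 epithelial marker genes 7 passed the filter on low counts, among them EPCAM, CDH1 and CDX2, and their summed level was 3174 to 3613 CPM in shCtrl and 2529 to 2637 in shGDPD5. Of these 7, KRT20 was higher in shGDPD5 (1.17 and 2.74 CPM, log2 fold change 1.23, edgeR adjusted p = 0.000203). The other 6 were called lower (edgeR adjusted p below 0.05), with log2 fold changes from -0.83 for CDH1 to -0.16 for KRT8. The CPM ranges of KRT8 overlapped between the groups. Over all tested genes, 29.7% were called higher and 30.1% lower. The intestinal markers VIL1, LGALS4 and CDH17 stayed below the filter. Of 16 fibroblast, immune and endothelial markers, 3 passed it. The immune markers, with CD3E at 0, summed to 7.16 to 11.6 CPM in shCtrl and 3.16 to 3.39 in shGDPD5. The part of these differences in the results below was not tested.

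Of the 10 Wnt genes, 7 had enough counts to be tested (118 or more per library), and 5 of them rose with GDPD5 knockdown (edgeR quasi-likelihood test, Benjamini-Hochberg adjusted p below 0.05 over all 16755 tested genes). These were DKK1, AXIN2, TCF7L2, TCF7 and ZNRF3. None of the 7 fell, whereas over all tested genes 29.7% were called higher and 30.1% lower. RNF43 and NKD1 did not pass the test. LGR5, ASCL2 and LEF1 had 0 to 2 counts per library and were not tested. On the log2 scale the fold changes of the 7 tested genes had a median of 0.39, beside 0.01 over all tested genes. Among the genes that passed, the size ran from 4.98-fold for DKK1 to 1.20-fold for ZNRF3. With one of the fold thresholds in the study's methods (absolute log2 fold change of 1 or more) and an unadjusted p below 0.05, here from edgeR, DKK1 and AXIN2 were higher and 0 of the 7 genes were lower, beside 5.38% higher and 6.60% lower of all tested genes.

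**Figure D1:**
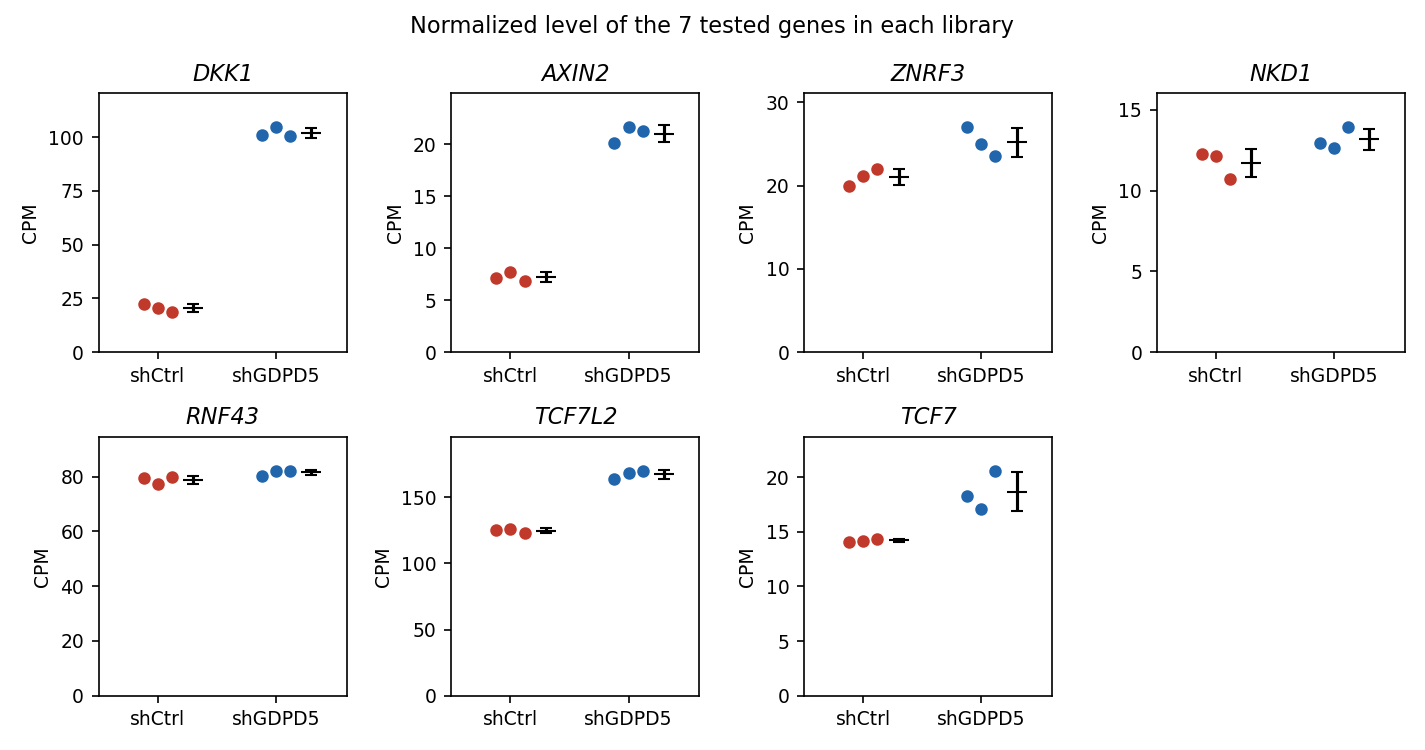
TMM-normalized CPM (y axes, each from 0) of the 7 tested genes in 3 shCtrl (red) and 3 shGDPD5 (blue) libraries, with 1 point per library and black marks for the mean and SD. DKK1 rose from 20.5 to 102.0 CPM and AXIN2 from 7.21 to 21.0, while the groups lie close together for RNF43 and NKD1.

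The promoters of the genes that rose are shown first, since TCF/LEF factors bind DNA through the motif CTTTGAA or CTTTGAT or CTTTGTA or CTTTGTT. RefSeq promoters on GRCh38.p14 (250 bases before to 50 after a start) were matched by symbol for 5 of the 10 genes, DKK1, TCF7, TCF7L2, LEF1 and RNF43, and AXIN2, NKD1, ZNRF3, LGR5 and ASCL2 had no entry. These 4 motifs, which do not overlap each other, were searched on both strands. At least 1 of them was present in 3 of the 9 promoters of these genes and in 13.8% of all 35116 promoters. These 9 are listed starts of 5 genes, with 3 of TCF7L2 alone, so they are not a share over genes. The first listed starts of TCF7L2 and TCF7 held no match. The 250 bases before the start are given for the 3 with a match, 5′ to 3′ along the gene, with the matches in capitals.
DKK1, chr10:52314031-52314280, plus strand: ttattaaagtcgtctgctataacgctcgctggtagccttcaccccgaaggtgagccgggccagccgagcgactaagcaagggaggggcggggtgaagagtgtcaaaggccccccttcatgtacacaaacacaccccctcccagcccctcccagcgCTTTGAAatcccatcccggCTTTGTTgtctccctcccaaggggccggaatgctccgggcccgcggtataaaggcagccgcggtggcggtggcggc
TCF7L2, the second of 3 listed starts, chr10:113126383-113126632, plus strand: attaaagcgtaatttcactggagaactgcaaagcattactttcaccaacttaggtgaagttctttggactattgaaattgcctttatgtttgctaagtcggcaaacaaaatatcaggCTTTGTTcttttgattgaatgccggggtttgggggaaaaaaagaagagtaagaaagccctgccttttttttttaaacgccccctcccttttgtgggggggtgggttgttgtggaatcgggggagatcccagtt
TCF7, the second of 2 listed starts, chr5:134123368-134123617, plus strand: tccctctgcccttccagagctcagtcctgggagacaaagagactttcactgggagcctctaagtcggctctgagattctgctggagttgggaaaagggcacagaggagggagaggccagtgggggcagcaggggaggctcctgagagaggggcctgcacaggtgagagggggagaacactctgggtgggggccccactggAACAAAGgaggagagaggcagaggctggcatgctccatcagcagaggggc
DKK1 held CTTTGAA and CTTTGTT, beginning 95 and 76 bases before its start. TCF7L2 held CTTTGTT 133 bases before its second start, and TCF7 the same motif on the opposite strand, with its first base in the printed sequence 50 bases before the start. Of all promoters, 4.43% held CTTTGAA and 5.20% held CTTTGTT. The starts in use were not measured, and a match describes the letters and not binding.

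Among the negative feedback regulators, DKK1 and AXIN2 rose most. DKK1 (ENSG00000107984, chromosome 10, 52314296 to 52318042 in GENCODE release 29 on GRCh38) encodes a secreted antagonist that binds the LRP5 and LRP6 co-receptors. Its level was 22.5, 20.5 and 18.5 CPM in the shCtrl libraries and 100.9, 104.6 and 100.4 CPM in the shGDPD5 libraries. Every shGDPD5 library lay far above every shCtrl library, and the log2 fold change was 2.32 (SE 0.07, edgeR adjusted p = 7.36e-11). It ranked as number 46 of the 16755 tested genes by fold change. DKK1 shares 212 exon bases with PRKG1-AS1 on the other strand, which had 47.9 to 81.8 counts in shCtrl and 90.7 to 115.2 in shGDPD5, against 320 to 386 and 1727 to 1960 counts for DKK1. The use of strand in counting is not given in the sources used here, so reads of the shared bases cannot be told apart.

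AXIN2 (ENSG00000168646, chromosome 17, 65528563 to 65561647) encodes a scaffold of the destruction complex and is a widely used readout of beta-catenin activity. It stood at 7.10, 7.73 and 6.80 CPM in shCtrl and 20.1, 21.6 and 21.3 CPM in shGDPD5. The groups were again well apart, with a log2 fold change of 1.54 (SE 0.09, edgeR adjusted p = 2.31e-08), or 2.91-fold (95% interval 2.54 to 3.33). By fold change it was number 277 of the tested genes. AXIN2 shares 1316 exon bases with AC004805.1 on its own strand, which had 4.63 counts in shGDPD5 replicate 1 and 0 in every other library.

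RNF43 and ZNRF3 encode paired membrane E3 ubiquitin ligases that remove Frizzled receptors from the cell surface. ZNRF3 (ENSG00000183579, chromosome 22, 28883592 to 29057487) had 20.0, 21.2 and 22.0 CPM in shCtrl and 27.0, 25.0 and 23.5 CPM in shGDPD5. The lowest shGDPD5 library stood just above the highest shCtrl library, and the log2 fold change was 0.26 (SE 0.08, edgeR adjusted p = 0.0101). Without shGDPD5 replicate 1 it was 0.21 and did not pass (adjusted p = 0.0613). RNF43 (ENSG00000108375, chromosome 17, 58352500 to 58417595) had 79.4, 77.3 and 80.0 CPM in shCtrl and 80.4, 82.0 and 82.1 CPM in shGDPD5. Its libraries nearly touched between groups, and its fold was 1.03 (95% interval 0.96 to 1.11, edgeR adjusted p = 0.418). RNF43 shares exon bases with the antisense gene TSPOAP1-AS1, with SUPT4H1 and with AC004687.2 on its own strand, of which TSPOAP1-AS1 (log2 fold change 1.03) and SUPT4H1 (0.32) were higher in shGDPD5. The overlap with AC004687.2 covers 57.6% of the RNF43 exon length, and AC004687.2 had 0 to 18.75 counts per library.

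NKD1 (ENSG00000140807, chromosome 16, 50548330 to 50649249), which encodes an inhibitor that binds Dishevelled, had 12.3, 12.1 and 10.7 CPM in shCtrl and 13.0, 12.6 and 13.9 CPM in shGDPD5. The groups did not overlap, yet the difference was small against the spread, with a fold of 1.12 (95% interval 0.98 to 1.30, edgeR adjusted p = 0.138). Groups that did not overlap, with shGDPD5 higher, were found for 32.5% of all tested genes and for all 7 genes here, RNF43 and NKD1 included.

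The feedback genes were also compared with each other as ratios of counts within each library, which no normalization changes. AXIN2 counts per NKD1 count were 0.578, 0.637 and 0.634 in shCtrl and 1.55, 1.71 and 1.53 in shGDPD5. The group means of AXIN2 counts per RNF43 count differed 2.82-fold and those of AXIN2 counts per ZNRF3 count 2.44-fold, both higher in shGDPD5. DKK1 counts per AXIN2 count were 2.66 to 3.16 in shCtrl and 4.72 to 5.01 in shGDPD5. None of these 4 ratios overlapped between the groups, and each gave p = 0.1 (exact permutation test, two-sided), which is the lowest value possible with 3 libraries against 3. ZNRF3 counts per RNF43 count also separated, at 0.251 to 0.274 against 0.286 to 0.336 (exact permutation p = 0.1).

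**Figure D2:**
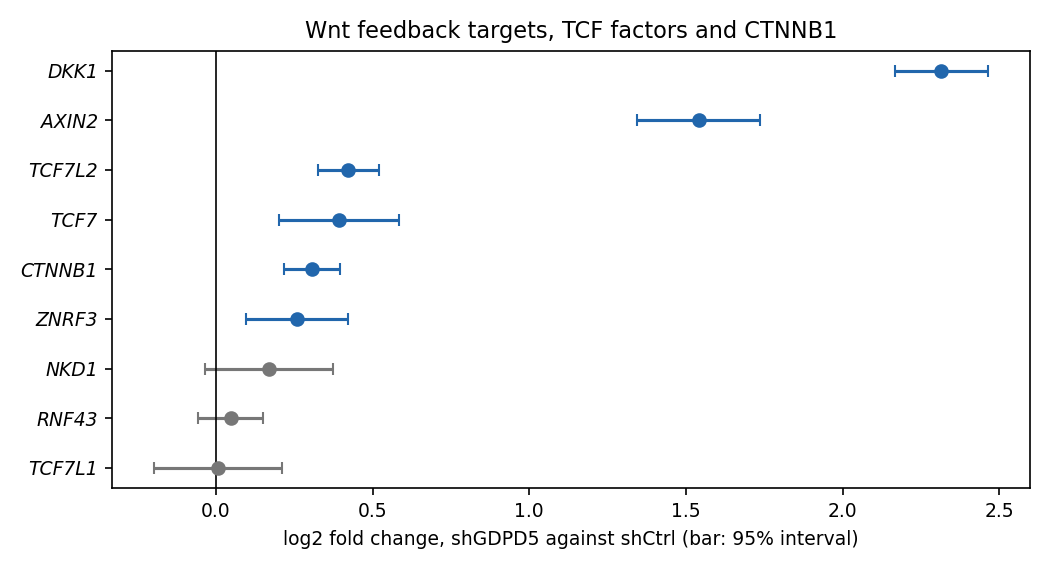
Fold change between shGDPD5 and shCtrl on the log2 scale (x axis) for the 7 tested genes, CTNNB1 and TCF7L1 (y axis), with 95% intervals as bars. Blue points passed an adjusted p of 0.05 and grey points did not. DKK1 (2.32) and AXIN2 (1.54) stand apart from the other genes, and the intervals of RNF43, NKD1 and TCF7L1 span 0.

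The stem cell target genes had almost no counts. LGR5 (ENSG00000139292), the R-spondin receptor that marks crypt stem cells, had 0 counts in every shCtrl library and 1, 2 and 0 counts in the shGDPD5 libraries. ASCL2 (ENSG00000183734), a transcription factor of intestinal stem cells, had 0 counts in all 6 libraries. A count of 0 allows up to 3 counts, which corresponds to 0.160 to 0.175 CPM in these libraries and covers counting error only. LEF1 (ENSG00000138795), the TCF/LEF factor often switched on in colorectal cancer, likewise had 0 counts in all 6 libraries. No difference between the groups was detectable for these 3 genes at this depth.

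Of the TCF/LEF factors, TCF7L2 and TCF7 rose and TCF7L1 had nearly equal levels. TCF7L2 (ENSG00000148737, also known as TCF4, chromosome 10, 112950250 to 113167678) is the main TCF factor of intestinal epithelium. It had 125.4, 126.4 and 122.7 CPM in shCtrl and 163.5, 168.3 and 170.0 CPM in shGDPD5. The groups were far apart relative to their spread, with a log2 fold change of 0.42 (SE 0.04, edgeR adjusted p = 4.40e-06). TCF7 (ENSG00000081059, also known as TCF1, chromosome 5, 134114711 to 134151865), itself a Wnt target, had 14.1, 14.2 and 14.4 CPM in shCtrl and 18.3, 17.1 and 20.6 CPM in shGDPD5. All shGDPD5 libraries were higher, with a wider spread than the controls and a log2 fold change of 0.39 (SE 0.09, edgeR adjusted p = 0.00206). TCF7 shares 210 exon bases with SKP1 on the other strand, which had a log2 fold change of 0.50. SKP1 had 1870 to 1970 counts in shCtrl and 2605 to 3105 in shGDPD5, against 242 to 251 and 313 to 365 counts for TCF7. Reads of the shared bases cannot be told apart, and their part in the TCF7 difference was not tested.

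TCF7L1, also known as TCF3 and mostly a repressor, was not among the 10 genes and is given for comparison. It had 9.67, 10.6 and 10.4 CPM in shCtrl and 10.3, 10.4 and 10.2 CPM in shGDPD5. Its log2 fold change was 0.01 (95% interval -0.20 to 0.21, edgeR adjusted p = 0.962) and had no fixed sign across the alternatives tried. TCF7L2 counts per TCF7L1 count were 11.8 to 13.0 in shCtrl and 15.9 to 16.7 in shGDPD5, while TCF7L2 counts per TCF7 count overlapped between the groups, at 8.54 to 8.92 and 8.26 to 9.85 (exact permutation p = 0.7).

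Scaled by exon length, TCF7L2 made up 83.2% ± 0.54 (SD, n = 3) of the summed level of TCF7L2, TCF7L1, TCF7 and LEF1 in shCtrl and 85.6% ± 0.39 (SD, n = 3) in shGDPD5. TCF7L1 made up 10.4% ± 0.48 and 8.03% ± 0.23, and TCF7 6.34% ± 0.13 and 6.38% ± 0.53. The shares of TCF7L2 and TCF7L1 did not overlap between the groups (exact permutation p = 0.1 each, the smallest possible), and that of TCF7 did (p = 0.9, exact permutation test). The difference in the TCF7L2 share was 2.35 percentage points, and 2.16 with the longest transcript as length.

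**Figure D3:**
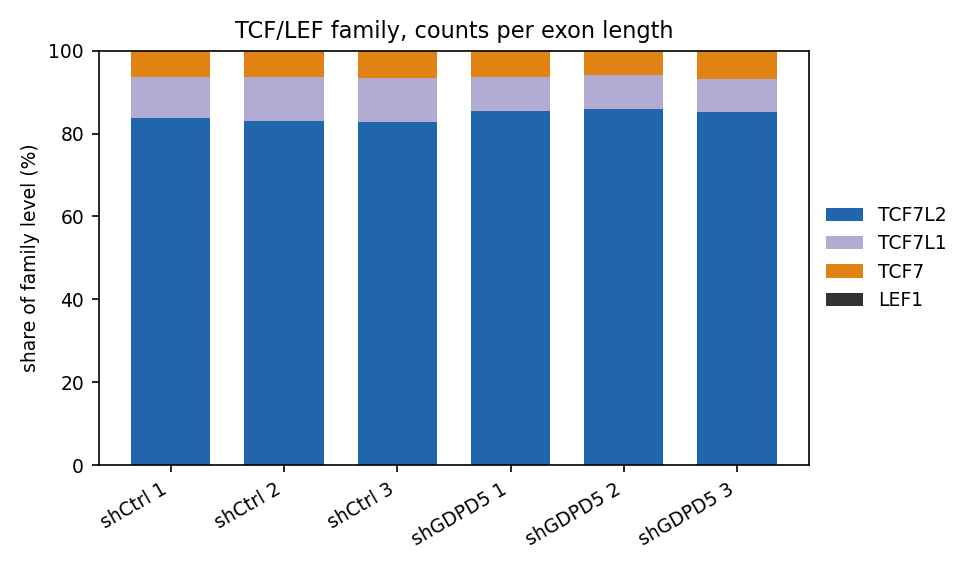
Share of each TCF/LEF factor in the family's summed level (y axis, %, counts per exon length) in each of the 6 libraries (x axis). TCF7L2 holds 82.8% to 86.0% of every bar, the TCF7L1 part is smaller in all shGDPD5 libraries, and LEF1 has no counts.

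Levels of different genes were compared per kilobase of exon. In shCtrl, TCF7L2 was the highest of the 10 genes at 18.5 ± 0.28 CPM per kb (SD, n = 3), followed by RNF43 at 10.5 ± 0.19 and DKK1 at 9.29 ± 0.91. RNF43 (10.3 to 10.7 CPM per kb) and DKK1 (8.37 to 10.2 CPM per kb) were neighbours in this order and did not overlap. ZNRF3 followed at 3.02 ± 0.14 CPM per kb, and then TCF7 at 1.41 ± 0.01 and AXIN2 at 1.38 ± 0.09, which did not differ beyond their spread with this length. NKD1 was lowest of the detected genes at 0.672 ± 0.049 CPM per kb. In shGDPD5 the order was different, with DKK1 highest at 46.2 ± 1.03 CPM per kb, then TCF7L2 at 24.8 ± 0.50 followed by RNF43 at 10.9 ± 0.13. AXIN2 at 4.02 ± 0.15 CPM per kb then lay beside ZNRF3 at 3.61 ± 0.25, with ranges of 3.85 to 4.14 and 3.38 to 3.88 that overlapped. With the longest transcript as length, an alternative added after seeing the data, neither of these pairs overlapped. TCF7 then had 2.66 CPM per kb and AXIN2 1.69 in shCtrl, and AXIN2 had 4.93 and ZNRF3 3.68 in shGDPD5.

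CTNNB1, which encodes beta-catenin, had 249.8, 247.9 and 245.0 CPM in shCtrl and 307.3, 310.1 and 301.2 CPM in shGDPD5. Every shGDPD5 library was higher, by 0.31 on the log2 scale (SE 0.04, edgeR adjusted p = 3.49e-05). TCF7L2 counts per CTNNB1 count were 0.501 to 0.510 in shCtrl and 0.532 to 0.565 in shGDPD5 (exact permutation p = 0.1).

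Other genes of the pathway, listed by role with earlier results of these data known, were more often lower than higher. Of 131 listed genes 94 were tested, of which 19 were higher, 43 were lower and 32 did not pass (edgeR adjusted p below 0.05). Their median log2 fold change was -0.19. In share, 20.2% were higher and 45.7% lower, beside 29.7% and 30.1% of all tested genes.

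The Wnt ligands and their export genes held 0 higher and 7 lower of 12 tested, and the other 5 did not pass. In share, 0% were higher and 58.3% lower, beside 29.7% and 30.1% of all tested genes. WNT7B fell from 16.6 ± 1.81 CPM to 5.31 ± 0.35 (SD, n = 3 each), a log2 fold change of -1.65. WNT10B, also a ligand of the canonical pathway, had -0.97 on the log2 scale, and WLS, the carrier that brings Wnt proteins to the cell surface, -0.48. WNT7A had only 16 to 22 counts in shCtrl and 1 to 4 in shGDPD5. The most abundant ligand in CPM, WNT16, had 115.9 CPM in shCtrl and 117.0 in shGDPD5 (edgeR adjusted p = 0.815).

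Of 14 tested receptor and R-spondin genes, 3 were higher (21.4%) and 5 lower (35.7%), beside 29.7% and 30.1% of all tested genes. FZD6, a Frizzled receptor, fell from 121.3 ± 6.68 to 50.3 ± 1.52 CPM (SD, n = 3 each), a log2 fold change of -1.27. The co-receptor gene LRP5 and the alternative receptor genes RYK and ROR1 had log2 fold changes of -0.50, -0.61 and -0.98. LRP6, the other co-receptor to which DKK1 binds, had 62.1 CPM in shCtrl and 59.5 in shGDPD5 (edgeR adjusted p = 0.445).

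Of 16 secreted and surface antagonists besides DKK1, 5 were tested, with 2 higher and 2 lower (40% each, beside 29.7% and 30.1% of all tested genes). FRZB, a secreted Frizzled-related protein, had 5 to 6 counts in shCtrl and 34 to 47 in shGDPD5. KREMEN1, a receptor for DKK1, rose by 0.52 on the log2 scale. Its paralog KREMEN2 had -0.66 on the log2 scale, and TRABD2A, a protease that inactivates Wnt proteins, had -0.58. Both of these passed narrowly (edgeR adjusted p = 0.0191 and 0.0169) and lost the call under 3 and 5 of the alternatives tried. Neither passed without shCtrl replicate 3 (edgeR adjusted p = 0.0836 and 0.0551). KREMEN2 also did not pass without shGDPD5 replicate 2 (edgeR adjusted p = 0.0696), nor TRABD2A without shGDPD5 replicate 1 (0.0507) or 3 (0.0721). The remaining tested antagonist, NOTUM, had a log2 fold change of -0.36 and did not pass (edgeR adjusted p = 0.0858), though it passed in 1 of the alternatives tried. DKK2, DKK3 and DKK4, named after their values were seen, had at most 2 counts in any library.

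All 21 genes of Dishevelled and the destruction complex were tested, and 4 were higher (19.0%) and 6 lower (28.6%). Neither share was above that of all tested genes, 29.7% and 30.1%. RNF146 and SIAH1, ubiquitin ligases that act on AXIN and on beta-catenin, had log2 fold changes of -0.77 and -0.76, and the casein kinase gene CSNK1A1 -0.38. DVL3, a Dishevelled gene, rose by 0.44 on the log2 scale. Among the partners of beta-catenin in the nucleus, 4 of 22 tested genes were higher (18.2%) and 11 lower (50%). The corepressor genes TLE1 and CTBP2 had log2 fold changes of -1.05 and -0.54, TBL1X, a cofactor gene, -0.76, and the chromatin remodeler gene CHD8 0.61. SIAH1 and CTBP2 share exon bases with LONP2 and ZRANB1 on the other strand. CSNK1A1 shares 37.4% of its exon length with AC021078.1 on its own strand, which had a mean of 679 counts.

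Other genes known as TCF targets in colorectal cells were more often lower than higher, with 6 of 20 tested genes higher and 12 lower. In share, 30% were higher and 60% lower, beside 29.7% and 30.1% of all tested genes, and their median log2 fold change was -0.24. BMP4 rose from 13.4 ± 2.75 to 49.6 ± 0.76 CPM and ID2 from 43.6 ± 1.91 to 88.3 ± 4.16 (SD, n = 3 each), log2 fold changes of 1.89 and 1.02. TIAM1, a Rac activator gene, had a log2 fold change of -1.60 and PLAUR, the urokinase receptor gene, -1.19. SP5, a direct target with low counts here, had 5 to 16 counts per library and did not pass (edgeR adjusted p = 0.195).

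**Figure D4:**
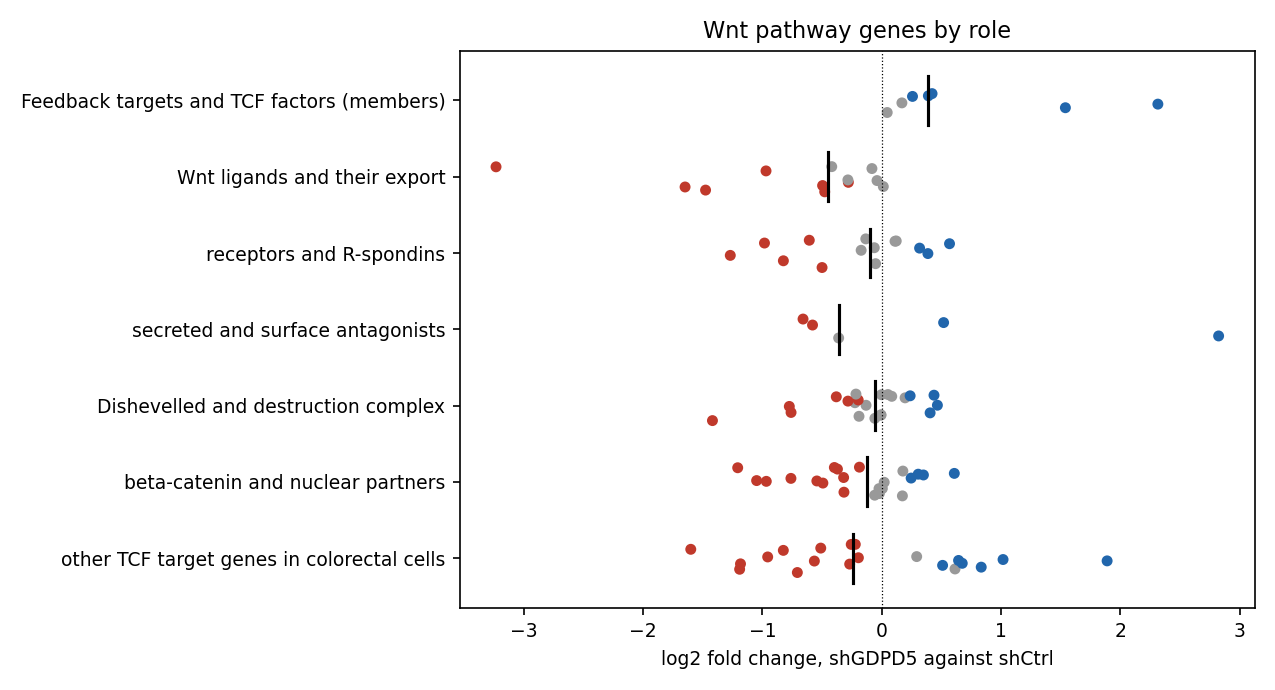
Fold change between shGDPD5 and shCtrl on the log2 scale (x axis) for the tested Wnt pathway genes in 7 role groups (y axis), with 1 point per gene and a black line at the median. Blue points were called higher, red points lower (edgeR adjusted p below 0.05), and grey points neither. The 7 tested feedback targets and TCF factors lie above 0, 2 of them grey, while 43 of the 94 other genes are red.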

How the data were processed

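Estimated counts per gene, which need not be whole, were deposited by the authors in 1 table for 6 libraries. Per the labels, total RNA went into a SMARTER mRNA-Seq library kit, and OE Biotech sequenced. Build, strand setting, aligner and counter were not given in the sources used here.

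Columns were matched to samples by library name and samples to groups by title. Counts were rounded (change of at most 0.5), filtered with edgeR defaults (minimum count 10, leaving 16755 of 79302 genes) and TMM-normalized. Testing used edgeR 4.0.16 (R 4.3.3), quasi-likelihood, with group as the only term, and a call needed an adjusted p under 0.05. The standard error is the absolute log2 fold change over the root of the F statistic. Replicate libraries differed beyond sampling noise (chi-square per degree of freedom 1.66 to 7.13), highest for pairs with shCtrl replicate 1. Symbols came from a name table (95.5% of tested genes), and positions, exon lengths and overlaps from GENCODE release 29. On simulated data, 50 of 50 genes raised by 2 and 41 of 49 raised by 1 on the log2 scale were recovered. Of lowered genes, 47 of 49 at -2 and 39 of 47 at -1 were recovered, and 17 of 16208 unchanged genes were called. The simulation used the dispersions fitted to these data and changed few genes, so it cannot test the normalization where many genes differ.

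The 10 genes and the pathway lists were chosen with earlier results of these data known. Named besides them are GDPD5, CTNNB1, TCF7L1 and, per role, up to 4 genes of smallest adjusted p under 0.05 and up to 2 of highest level that did not pass. Genes sharing exon bases with these, cell markers and DKK2 to DKK4 are named outside that rule. Alternatives tried were DESeq2 1.42.0, limma-voom (limma 3.58.1), RLE or upper quartile factors, a per-gene test on log2(CPM + 1) of the kind the study states, other filters, a replicate block, a fold threshold of the study and each library left out.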

Additional observations from a re-analysis of the deposited data

How the results depend on the processing

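In every fit with an adjusted p, 4 or 5 of the 7 tested genes were called higher and 0 lower, and the only loss was that of ZNRF3 without shGDPD5 replicate 1. DKK1 stayed between 2.24 and 2.38 and AXIN2 between 1.42 and 1.59 on the log2 scale. The median of the 7 genes ranged from 0.31 to 0.41 with each library left out. An absolute log2 fold change of 1 or more, one of the study's fold thresholds, was also used with an unadjusted p below 0.05 from edgeR. Then 2 of the 7 genes (DKK1 and AXIN2) were higher, as were 3 of the other pathway genes, with 10 lower. Of all tested genes, 902 were higher and 1105 lower, and the study's text reports fewer genes in each direction. Across 45 named genes and their alternatives, 601 of 627 values kept direction and call. Those that changed sign did not pass the test: TCF7L1 was -0.00948 with no filter on low counts and -0.0377 to 0.0276 with each library left out, WNT16 was -0.00152 with no filter and -0.0103 to 0.0418 with each library left out, CSNK1D was 0.0113 with upper quartile factors and -0.0738 to 0.0245 with each library left out, and with each library left out WNT2B had -0.16 to 0.0273 and LRP6 -0.123 to 0.00894. Replicate numbers did not pair the libraries (correlation of deviations -0.07 to -0.04 for same numbers). The replicate block gave 5 higher genes of the 7, 4792 higher and 4853 lower of all tested genes, 19 higher and 41 lower of the other pathway genes (without it 43 lower), and changed no call among the 45 genes. Depth limits what can be said of LGR5, ASCL2 and LEF1.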
